A study of Homo sapiens with 5 samples.

Results

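The 54 genes described here encode RNA polymerase I and its factors, the proteins that cut, modify and fold pre-ribosomal RNA, and nucleolar scaffold proteins. They were taken by gene name from a list that was drawn up with earlier results of these data known. Their shares beside those of all genes are therefore descriptions. All 54 were found among the 27992 gene names of the count table. All 54 also passed the filter on low counts (at least 1 count per 1000000 reads, CPM, in at least 1 library), which left 15109 genes. RNA was sequenced from U2OS, a cell line of a human osteosarcoma, in 5 groups with 1 library each. The first library came from parental U2OS cells. The other 4 came from U2OS cells with a pTRIPZ vector, which is induced by doxycycline, for a fusion of YFP, the oestrogen receptor (ER) and E2F1; flow cytometry had parted these cells by their YFP signal into 4 fractions, YFP-negative and then, by rising signal, YFP-low, YFP-medium and YFP-high. All 5 libraries, the parental one included, are labelled as grown in 8% fetal bovine serum and given doxycycline at 500 ng/ml for 48 h and then OHT (4-hydroxytamoxifen, which activates ER fusions) at 90 nM for 20 h more. The labels do not say whether the construct cells were 1 clone or a pool, or whether the parental cells were gated.

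Ribosomes are made in the nucleolus. RNA polymerase I copies the ribosomal DNA repeats into a long precursor, which small nucleolar RNPs modify and which assembly factors cleave and fold into the large and the small subunit. MYC is known to drive many of these genes, in part through the E-box motif to which it binds with MAX, and E2F1 is a transcription factor of S phase entry.

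E2F1 checked the labels: it was at 86.1 CPM in parental and 106 CPM in YFP-negative cells, then at 163 CPM with low, 361 CPM with medium and 996 CPM with high YFP. Reads of the construct and of the cell's own E2F1 gene are not told apart. Each library held 70.7 M to 76.5 M gene reads (M, 1000000 reads). Of 9 osteoblast and mesenchyme markers 6 reached 1 CPM in each library, whereas SP7, COL1A2 and BGLAP did not; the 9 summed to 2870 TPM (transcripts per 1000000, a level per length) in YFP-high and 3280 TPM in YFP-negative. Of 6 leukocyte markers 3 reached 1 CPM in YFP-low, YFP-medium and YFP-high, and 2 in parental and YFP-negative cells. PTPRC and CD3E stayed under 1 CPM in each library. By the 2-fold rule given below, some markers past the filter were higher in YFP-high than in YFP-negative, beside 20.5% of all genes. These were 1 of 3 leukocyte, 1 of 4 epithelial and 1 of 3 endothelial markers, and 0 of 6 osteoblast and mesenchyme markers. The 6 leukocyte markers summed to 17.0 TPM in YFP-high and 9.18 TPM in YFP-negative. The 6 epithelial markers summed to 20.4 TPM in YFP-high and 10.1 TPM in YFP-negative, and the 5 endothelial markers to 1.16 TPM in YFP-high and 1.02 TPM in YFP-negative; their part in the results below was not tested. With RNA from bulk fractions, fewer cells of a type and less RNA per cell cannot be told apart. Reads outside annotated genes made up 11.0% of counted reads in YFP-high and 9.11% to 9.86% in the other libraries.

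The E-box, CACGTG on either strand (the motif is its own reverse complement), was searched in RefSeq promoters of the GRCh38.p14 build, from 250 bases before to 50 bases after the first start listed for each gene. Of the 54 genes 44 had an entry. The motif stood in 15 of these 44 promoters (34.1%), against 7.43% of all 27305 promoters in the table and 9.92% of the 9960 promoters of genes that passed the filter. It occurred 17 times in these promoters, and 11 genes held it between 4 and 36 bases after the start. The next lines give 30 bases around it, 5′ to 3′ on the gene's strand, for the 6 genes with the motif that were lower in YFP-high, for 1 gene that was higher (NOP14) and for 2 that were neither (FBL and RCL1). The capitals mark the E-box.
NOP2 (chr12:6568242-6568271, minus strand): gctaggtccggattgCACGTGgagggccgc
MYBBP1A (chr17:4555340-4555369, minus strand): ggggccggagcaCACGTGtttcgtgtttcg
WDR43 (chr2:28894658-28894687, plus strand): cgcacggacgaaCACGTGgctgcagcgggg
BYSL (chr6:41921515-41921544, plus strand): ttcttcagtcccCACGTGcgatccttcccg
NOC3L (chr10:94362903-94362932, minus strand): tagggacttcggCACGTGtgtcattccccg
PES1 (chr22:30591880-30591909, minus strand): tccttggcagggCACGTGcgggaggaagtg
NOP14 (chr4:2963374-2963403, minus strand): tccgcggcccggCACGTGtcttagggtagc
FBL (chr19:39846356-39846385, minus strand): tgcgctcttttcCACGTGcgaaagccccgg
RCL1 (chr9:4792936-4792965, plus strand): cctgttccaaacCACGTGgacgcgtctggg
The motif stood in 6 of 13 promoters of genes lower in YFP-high by the rule given next, in 8 of 29 promoters of genes that were neither and in 1 of 2 promoters of genes that were higher. The E2F motif TTTCCCGC, on either strand, was found in the promoters of PES1 and WDR36, or 4.55% of the 44, against 2.57% of promoters of genes that passed the filter. The E2F motif TTTGGCGC was in 0 of the 44, against 1.12% of those promoters. A match is a description of the letters and no evidence that a factor binds there.

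In YFP-high the log2 ratio against YFP-negative was below 0 for most of these genes, and 6 of 16 large subunit and 5 of 14 small subunit genes were lower by the rule given next. A gene was called lower or higher when its ratio of CPM + 0.5 passed 2-fold and the exact 95% counting interval of its CPM ratio (Clopper-Pearson) excluded 1. By this rule 15 of the 54 genes (27.8%) were lower in YFP-high, beside 11.3% of all genes, and 3 (5.56%) were higher, beside 20.5% of all genes. The other 36 were neither. The filter asks for 1 CPM in only 1 library, so a gene near 0 in YFP-negative can pass through YFP-high and be called higher. The 54 genes hold no such case, since all but PPAN had at least 9.37 CPM in every library. How far this raised the 20.5% over all genes was not tested. The log2 ratio was below 0 for 43 genes (79.6%), beside 51.7% of all genes, and its median was -0.73, beside -0.04 over all genes. A single library per group gives no measure of the spread between samples, and no test was possible; the intervals cover counting error only, and PCR copies of a molecule are not independent. With a 1.5-fold rule 30 genes were lower, beside 25.4% of all genes, and 6 were higher, beside 29.3%. Scaling by total gene counts, which lowers all ratios together, put the split by the 2-fold rule at 27 lower genes, beside 19.0% of all genes, and 0 higher, beside 16.0%.

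**Figure D1:**
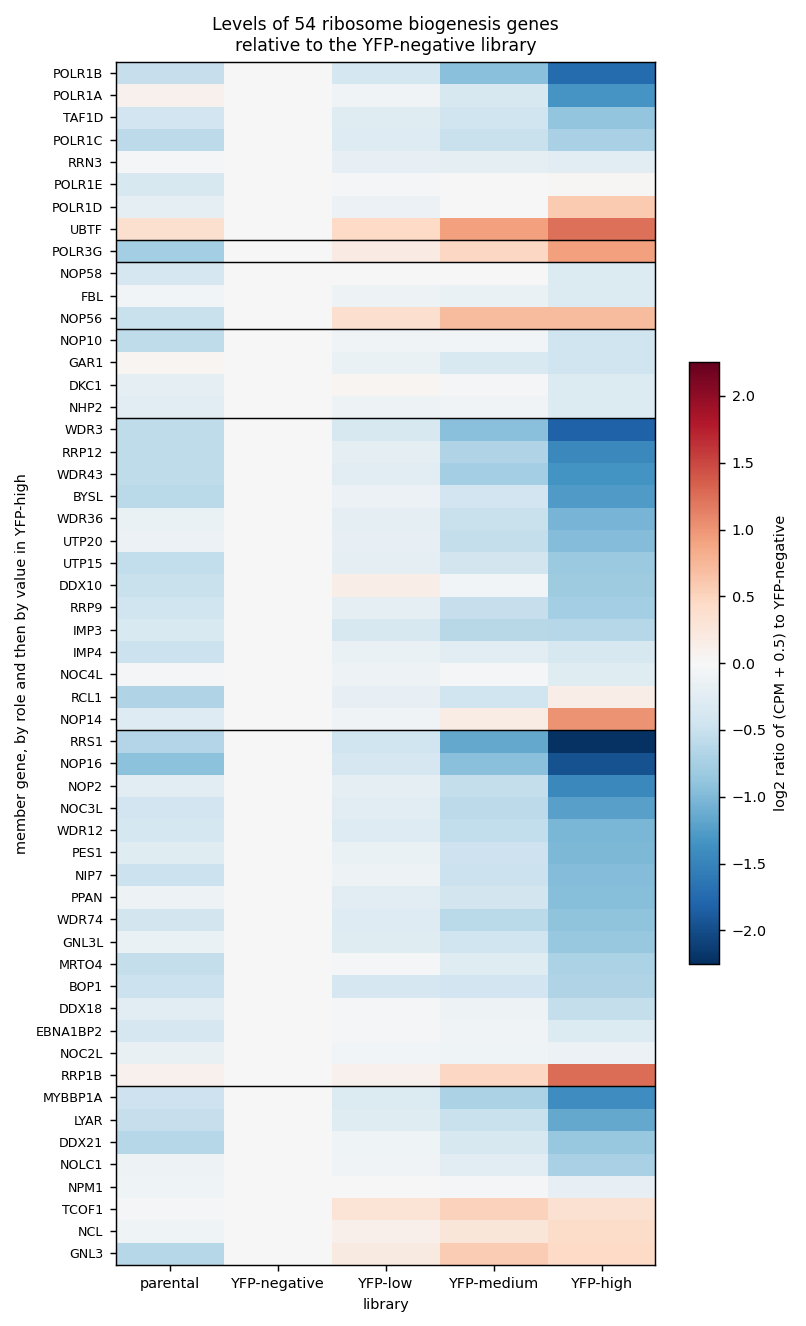
Heat map of the log2 ratio of CPM + 0.5 to the YFP-negative library for the 54 genes (rows, by role from RNA polymerase I at the top to nucleolar scaffold proteins at the bottom, then by value in YFP-high) in the 5 libraries (columns, parental to YFP-high). Blue is lower and red higher than YFP-negative; RRS1 is lowest in YFP-high at -2.23 and RRP1B highest at 1.25, and 50 of 54 genes are below YFP-negative in the parental library.

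Large subunit factors held the lowest values. Of 16 genes 6 were lower in YFP-high (37.5%, beside 11.3% of all genes) and 1 was higher (6.25%, beside 20.5%). The median log2 ratio was -0.93. RRS1, which helps to place the 5S RNA and its proteins in the large subunit, had 48.0 CPM in parental and 76.0 CPM in YFP-negative cells, then 55.9 CPM at YFP-low, 34.1 CPM at YFP-medium and 15.8 CPM at YFP-high. It was 4.81-fold lower in YFP-high than in YFP-negative (counting interval 4.50 to 5.14), the lowest ratio of the 54 genes. NOP16, a nucleolar protein of large subunit assembly, was at 27.9 CPM in parental and 53.3 CPM in YFP-negative cells, and at 40.8 CPM with low, 27.6 CPM with medium and 13.3 CPM with high YFP. NOP16 was thus 4.00-fold lower in YFP-high than in YFP-negative (3.72 to 4.32), but its YFP-medium level was close to the parental one. Its neighbour ARL10, which overlaps it in RefSeq, had 575 reads in YFP-high and 1056 reads in YFP-negative. Reads classed as ambiguous, which count for no gene, made up 4.06% to 4.33% of counted reads per library. Whether the counting used strand is not given in these sources. How far reads of 1 gene entered or left the count of an overlapping gene thus cannot be told. In all, 18 of the 54 genes overlap a gene of the count table.

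NOP2, a methyltransferase of large subunit ribosomal RNA, had 50.5 CPM in parental and 59.5 CPM in YFP-negative cells, then 50.9 CPM at YFP-low, 40.7 CPM at YFP-medium and 21.6 CPM at YFP-high. NOC3L, whose yeast counterpart Noc3 travels with pre-large subunits, was at 65.0 CPM in parental and 88.2 CPM in YFP-negative cells, and at 73.4 CPM with low, 58.3 CPM with medium and 37.7 CPM with high YFP. These genes were 2.76-fold (NOP2; 2.60 to 2.93) and 2.34-fold (NOC3L; 2.23 to 2.45) lower in YFP-high than in YFP-negative, and both carry the E-box printed above. NOC3L's neighbour PLCE1, which overlaps it, went the other way, with 21079 reads in YFP-high and 10085 reads in YFP-negative.

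The PeBoW complex, which joins PES1, BOP1 and WDR12 and is needed to process the large subunit's RNA, had log2 ratios below 0 for all 3 parts, 2 of which passed the rule. PES1 had 156 CPM in parental and 188 CPM in YFP-negative cells, then 169 CPM at YFP-low, 136 CPM at YFP-medium and 92.6 CPM at YFP-high. WDR12 was at 49.5 CPM in parental and 65.6 CPM in YFP-negative cells, and at 53.4 CPM with low, 44.7 CPM with medium and 32.0 CPM with high YFP. BOP1 had 41.8 CPM in parental and 58.8 CPM in YFP-negative cells, then 45.0 CPM at YFP-low, 43.8 CPM at YFP-medium and 36.6 CPM at YFP-high. The folds were 2.03 for PES1 (1.97 to 2.09) and 2.05 for WDR12 (1.95 to 2.16), just past the rule, and 1.60 for BOP1 (1.53 to 1.69), short of it. With DESeq2 size factors PES1 (log2 ratio -0.98) and WDR12 (-0.99) missed the rule, and so did WDR12 with a pseudocount of 2 CPM (-0.99).

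Of the remaining large subunit genes, the assembly factors NIP7 and WDR74 had log2 ratios of -0.97 and -0.90 in YFP-high, and the nucleolar GTPase GNL3L was at -0.86. MRTO4, a relative of a ribosomal stalk protein, was at -0.72, the helicase DDX18 at -0.53 and EBNA1BP2, the counterpart of yeast Ebp2, at -0.31. NOC2L was close to level at -0.14. PPAN, the counterpart of yeast Ssf1, had only 38 reads in YFP-high and 135 reads in YFP-negative. Its reads gave 2.72-fold less in YFP-high (1.89 to 4.01), but the 0.5 CPM added to both sides put its log2 ratio at -0.95, so it was not called. P2RY11, which overlaps PPAN, had 59 reads in YFP-high and 176 reads in YFP-negative. PPAN-P2RY11, a further gene that overlaps PPAN, had 0 reads in each library. Reads shared by these genes may have been given to none of them, so the count of PPAN may understate its level. RRP1B, a nucleolar protein that binds protein phosphatase 1, was the exception of this group: it was at 103 CPM in parental and 95.9 CPM in YFP-negative cells, and at 102 CPM with low, 132 CPM with medium and 229 CPM with high YFP. RRP1B was 2.38-fold higher in YFP-high than in YFP-negative (2.32 to 2.45), and most of that rise lay between YFP-medium and YFP-high; with total-count scaling its log2 ratio was 0.98, short of the rule.

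Small subunit factors showed the same mixture. Of 14 genes 5 were lower (35.7%, beside 11.3% of all genes) and 1 was higher (7.14%, beside 20.5%). The median log2 ratio was -0.82. WDR3, a part of the small subunit processome, the large particle in which the precursor is first cut, had 80.9 CPM in parental and 121 CPM in YFP-negative cells, then 94.2 CPM at YFP-low, 62.8 CPM at YFP-medium and 33.8 CPM at YFP-high. It was 3.57-fold lower in YFP-high than in YFP-negative (3.41 to 3.74). WDR43, another processome protein, was at 110 CPM in parental and 163 CPM in YFP-negative cells, and at 137 CPM with low, 96.1 CPM with medium and 63.6 CPM with high YFP. WDR36, also of the processome, had 76.7 CPM in parental and 84.7 CPM in YFP-negative cells, then 72.7 CPM at YFP-low, 59.6 CPM at YFP-medium and 40.7 CPM at YFP-high. Their folds were 2.56 for WDR43 (2.47 to 2.65) and 2.08 for WDR36 (1.99 to 2.18), and WDR43 and WDR36 held to the same falling order across the 4 fractions as WDR3.

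RRP12, which in yeast helps to export pre-ribosomes, was at 74.5 CPM in parental and 112 CPM in YFP-negative cells, and at 95.6 CPM with low, 69.4 CPM with medium and 40.4 CPM with high YFP. BYSL, the counterpart of yeast Enp1 in late small subunit assembly, had 62.7 CPM in parental and 95.9 CPM in YFP-negative cells, then 87.6 CPM at YFP-low, 71.0 CPM at YFP-medium and 39.2 CPM at YFP-high. RRP12 was 2.76-fold (2.64 to 2.88) and BYSL 2.45-fold (2.34 to 2.56) lower in YFP-high than in YFP-negative. MED20, which overlaps BYSL, had 1708 reads in YFP-high and 5589 reads in YFP-negative; its part in the BYSL value was not tested. The processome proteins UTP20 and UTP15, the helicase DDX10 and the U3 snoRNP proteins RRP9, IMP3 and IMP4 had log2 ratios of -0.98, -0.83, -0.80, -0.76, -0.65 and -0.36.

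NOP14 and NOC4L, which in yeast work as a pair in the small subunit, lay on opposite sides of 0. NOP14 was at 32.8 CPM in parental and 40.0 CPM in YFP-negative cells, and at 37.6 CPM with low, 44.9 CPM with medium and 81.4 CPM with high YFP. It was 2.04-fold higher in YFP-high than in YFP-negative (1.95 to 2.13), whereas NOC4L had a log2 ratio of -0.27. With total-count scaling the log2 ratio of NOP14 was 0.75, short of the rule. The antisense gene of NOP14, listed as C4orf10, had 75 reads in YFP-high and 225 reads in YFP-negative. RCL1, whose yeast counterpart acts in an early cleavage of the precursor, had 9.37 CPM in parental and 15.2 CPM in YFP-negative cells, then 13.4 CPM at YFP-low, 11.0 CPM at YFP-medium and 16.9 CPM at YFP-high. RCL1 was lower at each step through YFP-medium and stood at 1.11 times its YFP-negative level in YFP-high (0.14 on the log2 scale, and -0.12 with total-count scaling).

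Within the RNA polymerase I machinery the catalytic core and the DNA-binding factor UBTF lay on opposite sides of 0. Of 8 genes 2 were lower (25.0%, beside 11.3% of all genes) and 1 was higher (12.5%, beside 20.5%). POLR1A, the largest subunit, was at 142 CPM in parental and 132 CPM in YFP-negative cells, and at 125 CPM with low, 102 CPM with medium and 52.2 CPM with high YFP. POLR1B, which forms the active centre with POLR1A, had 59.8 CPM in parental and 85.9 CPM in YFP-negative cells, then 64.8 CPM at YFP-low, 44.4 CPM at YFP-medium and 25.6 CPM at YFP-high. UBTF, which coats active ribosomal DNA repeats, was at 312 CPM in parental and 244 CPM in YFP-negative cells, and at 331 CPM with low, 460 CPM with medium and 574 CPM with high YFP. In YFP-high POLR1A was 2.53-fold lower (2.43 to 2.63), POLR1B 3.35-fold lower (3.17 to 3.54) and UBTF 2.35-fold higher (2.31 to 2.40) than in YFP-negative. With total-count scaling UBTF was at 0.96 on the log2 scale, short of the rule. POLR1A and UBTF were the members of this group whose YFP-negative level was below the parental one.

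The other 5 genes of the RNA polymerase I group were neither lower nor higher. TAF1D, a part of the promoter factor SL1, had a log2 ratio of -0.89. POLR1C and POLR1D, which form a pair shared by RNA polymerases I and III, had log2 ratios of -0.74 and 0.59, on opposite sides of 0. POLR1D is overlapped by LNX2, which had 4270 reads in YFP-high and 1445 reads in YFP-negative; its part in the POLR1D value was not tested. RRN3, which recruits the polymerase to the promoter, was at -0.25, and POLR1E, a subunit that helps the polymerase to initiate, was level at 0.03. The sign for POLR1E turned with total-count scaling (-0.24) and with the deposited TPM (-0.10).

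POLR3G, a subunit of RNA polymerase III that takes the place of its paralog POLR3GL, had 16.9 CPM in parental and 29.0 CPM in YFP-negative cells, then 32.9 CPM at YFP-low, 40.3 CPM at YFP-medium and 55.1 CPM at YFP-high. Its log2 ratio of 0.92 in YFP-high against YFP-negative was short of the rule, but against parental cells POLR3G was 3.26-fold higher in YFP-high (3.06 to 3.48). POLR3GL had 3.68 CPM in YFP-high and 7.94 CPM in YFP-negative, a log2 ratio of -1.01, so the paralogs lay on opposite sides of 0. MBLAC2, which overlaps POLR3G, had 182 reads in YFP-high and 817 reads in YFP-negative.

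The snoRNP core proteins all stayed short of the rule. Of 3 box C/D and 4 box H/ACA genes 0 were lower, beside 11.3% of all genes, and 0 higher, beside 20.5%. Groups this small cannot show a difference from those shares. The median log2 ratio was -0.30 for the 3 box C/D proteins and -0.38 for the 4 box H/ACA proteins. NOP56, which binds box C/D snoRNAs beside NOP58 and the methyltransferase FBL, was at 141 CPM in parental and 200 CPM in YFP-negative cells, and at 258 CPM with low, 326 CPM with medium and 328 CPM with high YFP. NOP58 and FBL had log2 ratios of -0.32 and -0.30, against 0.71 for NOP56. The H/ACA proteins lay close together, with NOP10 at -0.46, GAR1 at -0.44, the pseudouridine synthase DKC1 at -0.32 and NHP2 at -0.31. GAR1 had 39.1 CPM in parental and 37.9 CPM in YFP-negative cells, then 34.2 CPM at YFP-low, 29.7 CPM at YFP-medium and 27.7 CPM at YFP-high.

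Of the 8 nucleolar scaffold proteins and regulators 2 were lower (25.0%, beside 11.3% of all genes) and 0 higher (beside 20.5%). Their median log2 ratio was -0.46. MYBBP1A, a nucleolar protein that binds MYB, was at 47.3 CPM in parental and 65.1 CPM in YFP-negative cells, and at 52.5 CPM with low, 39.3 CPM with medium and 24.5 CPM with high YFP. LYAR, a nucleolar protein of proliferating cells, had 18.4 CPM in parental and 26.7 CPM in YFP-negative cells, then 22.0 CPM at YFP-low, 18.8 CPM at YFP-medium and 11.8 CPM at YFP-high. MYBBP1A was 2.66-fold (2.51 to 2.81) and LYAR 2.26-fold (2.08 to 2.46) lower in YFP-high than in YFP-negative. DDX21, a helicase that acts with RNA polymerase I, and NOLC1, a snoRNP chaperone, had log2 ratios of -0.85 and -0.73.

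The abundant scaffold proteins stayed short of the rule. NCL (nucleolin) was at 1098 CPM in parental and 1176 CPM in YFP-negative cells, and at 1268 CPM with low, 1423 CPM with medium and 1561 CPM with high YFP. NPM1 (nucleophosmin) had 1222 CPM in parental and 1301 CPM in YFP-negative cells, then 1303 CPM at YFP-low, 1258 CPM at YFP-medium and 1148 CPM at YFP-high; NPM1 has processed pseudogenes, so its count is uncertain. GNL3 (nucleostemin) was at 73.1 CPM in parental and 114 CPM in YFP-negative cells, and at 132 CPM with low, 169 CPM with medium and 156 CPM with high YFP. TCOF1 (treacle), which joins ribosomal DNA transcription to pre-RNA modification, had 218 CPM in parental and 220 CPM in YFP-negative cells, then 272 CPM at YFP-low, 316 CPM at YFP-medium and 279 CPM at YFP-high. GNL3 and TCOF1 thus had their highest level in YFP-medium, and the log2 ratios in YFP-high were 0.41 for NCL, -0.18 for NPM1, 0.45 for GNL3 and 0.34 for TCOF1.

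Per length, the set's summed level was 7801 TPM in parental and 9503 TPM in YFP-negative cells, then 9042 TPM at YFP-low, 8420 TPM at YFP-medium and 7581 TPM at YFP-high. NCL and NPM1 made up much of this sum, and without them it was 4599 TPM in parental and 6052 TPM in YFP-negative cells, then 5578 TPM at YFP-low, 5069 TPM at YFP-medium and 4299 TPM at YFP-high. The large subunit group summed to 798 TPM in YFP-high and 1448 TPM in YFP-negative, and the small subunit group to 585 TPM in YFP-high and 1044 TPM in YFP-negative. The sum of the RNA polymerase I group was 575 TPM in YFP-high and 571 TPM in YFP-negative, with higher UBTF beside lower POLR1A and POLR1B. UBTF alone was at 246 TPM in YFP-high and 114 TPM in YFP-negative.

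The lower genes fell in graded steps. The CPM fell at each of the 3 steps from YFP-negative to YFP-high for 36 of the 54 genes (66.7%), beside 27.9% of all genes, and rose at each step for 5 (9.26%), beside 24.1%. The 5 were UBTF, POLR3G, NOP56, RRP1B and NCL. The order rests on the values alone, and some steps were small, as for RRN3 with 38.4 CPM at YFP-low, 37.4 CPM at YFP-medium and 36.7 CPM at YFP-high. In the large subunit group 15 of 16 genes fell at each step, against 1 of the 4 box H/ACA genes. The median step of the 54 genes on the log2 scale was -0.14 into YFP-low, -0.19 into YFP-medium and -0.36 into YFP-high, beside 0.00, 0.00 and -0.07 over all genes. Of the 36 falling genes 27 fell most at the last step, 3 at the middle one and 6 at the first; the share at the last step was 75.0%, beside 67.0% of the 4210 genes of the whole table that fell at each step.

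At the lower YFP levels few genes passed the rule. In YFP-low 0 of the 54 genes were lower and 0 higher than in YFP-negative, beside 0.0463% and 2.11% of all genes. The log2 ratio was nonetheless below 0 for 43 genes, beside 50.1% of all genes, with a median of -0.14 and a range from -0.44 for RRS1 to 0.44 for UBTF. In YFP-medium RRS1 was the 1 lower gene (beside 2.21% of all genes), at a log2 ratio of -1.15, and 0 were higher (beside 9.76%). With the 1.5-fold rule 10 genes were lower in YFP-medium, beside 11.8% of all genes, and 2 higher, beside 19.0%; in YFP-low 0 were lower and 0 higher, beside 1.34% and 7.27%. In YFP-medium the log2 ratio was below 0 for 45 genes, beside 51.0% of all genes, and the median was -0.36, beside -0.01. After RRS1 the lowest in YFP-medium were NOP16, WDR3 and POLR1B, each at -0.94, and UBTF was highest at 0.91.

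MYC itself followed another course. It was at 126 CPM in parental and 145 CPM in YFP-negative cells, and at 102 CPM with low, 56.7 CPM with medium and 53.5 CPM with high YFP. On the log2 scale 94.2% of its YFP-high difference from YFP-negative was present in YFP-medium. For the 15 lower genes that share ranged from 27.2% to 56.3%, with a median of 48.1%, beside a median of 51.2% over the 1707 genes that were lower in YFP-high. In YFP-low the share was 35.5% for MYC and 5.46% to 28.6% for the 15 genes, beside a median of 20.1% over the 1707 genes. Between YFP-medium and YFP-high these genes thus fell on while MYC was nearly level. The 15 genes were chosen by their YFP-high level, so a further fall there was partly built in. Their median shares were close to those of all lower genes, and whether MYC had a part in these falls was not tested.

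**Figure D2:**
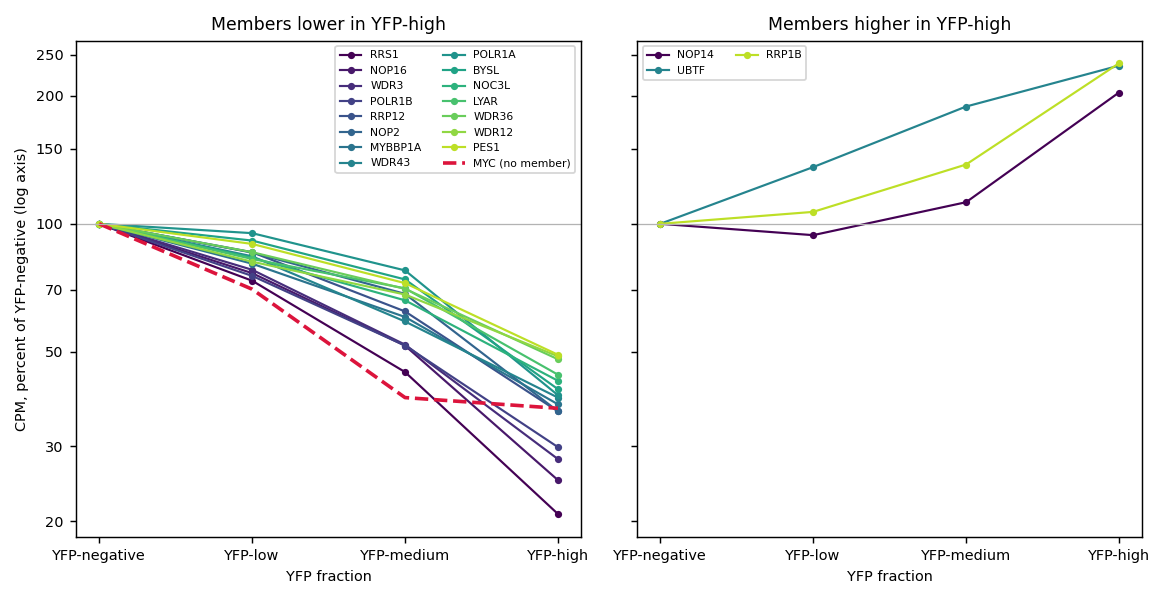
CPM as a percent of the YFP-negative library (log axis) across the 4 YFP fractions for the 15 genes lower in YFP-high, with MYC dashed (left), and for the 3 genes higher in YFP-high (right); each point is 1 library. MYC is near its lowest level in YFP-medium, whereas the 15 genes fall further in YFP-high, and UBTF climbs from YFP-low on while NOP14 and RRP1B climb mostly in YFP-high. The 15 and the 3 genes were chosen by their YFP-high level, so a further change there was partly built in.

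YFP-negative stood above parental cells for nearly the whole set. The log2 ratio of YFP-negative against parental was above 0 for 50 of the 54 genes, beside 48.6% of all genes, and its median was 0.39, beside -0.01. None passed 2-fold (0 higher, beside 2.15% of all genes; 0 lower, beside 2.93%). With a 1.5-fold rule 8 genes were higher in YFP-negative, beside 6.61% of all genes, and 0 lower, beside 9.02%. The 8 were NOP16, POLR3G, RCL1, RRS1, GNL3, DDX21, BYSL and POLR1C, at log2 ratios of 0.92, 0.76, 0.67, 0.66, 0.64, 0.64, 0.61 and 0.59. UBTF (-0.36), POLR1A (-0.10), RRP1B (-0.10) and GAR1 (-0.05) were the 4 genes below 0. Of the 5 libraries YFP-negative held the highest level of 37 genes (68.5%), beside 15.9% of all genes. Marker sums differed between the same libraries. The osteoblast and mesenchyme markers summed to 3280 TPM in YFP-negative and 4690 TPM in parental cells, with 1 of 6 analysed genes lower by the 2-fold rule. The epithelial markers summed to 10.1 TPM in YFP-negative and 20.0 TPM in parental cells (2 of 4 lower), the leukocyte markers to 9.18 TPM in YFP-negative and 12.2 TPM in parental cells (0 of 3) and the endothelial markers to 1.02 TPM in YFP-negative and 1.90 TPM in parental cells (1 of 3). Their part in the results was not tested.

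Against parental cells YFP-high was less far down than against YFP-negative. Here 6 genes were lower (11.1%), beside 14.9% of all genes, and 5 were higher (9.26%), beside 21.3%. Both shares were thus below those of all genes. The median log2 ratio was -0.29, beside -0.04. The ratio was below 0 for 38 genes, beside 51.5% of all genes. With the 1.5-fold rule 19 were lower, beside 28.1%, and 8 higher, beside 30.1%; with total-count scaling the 2-fold rule gave 12 lower genes, beside 21.1% of all genes, and 2 higher, beside 17.5%. The 6 lower genes were RRS1 (-1.57), POLR1A (-1.43), WDR3 (-1.25), POLR1B (-1.21), NOP2 (-1.21) and NOP16 (-1.04), all of them also lower against YFP-negative. The 5 higher genes were POLR3G (1.68), NOP14 (1.30), NOP56 (1.22), RRP1B (1.15) and GNL3 (1.09), and UBTF was at 0.88. The YFP-high level lay below both baselines for 38 genes, between them for 5 and above both for 11. Over all genes it lay below both for 46.2% and above both for 43.0%. YFP-high enters both comparisons, and YFP-negative enters the other 2 from opposite sides, so these values are not independent of each other.

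**Figure D3:**
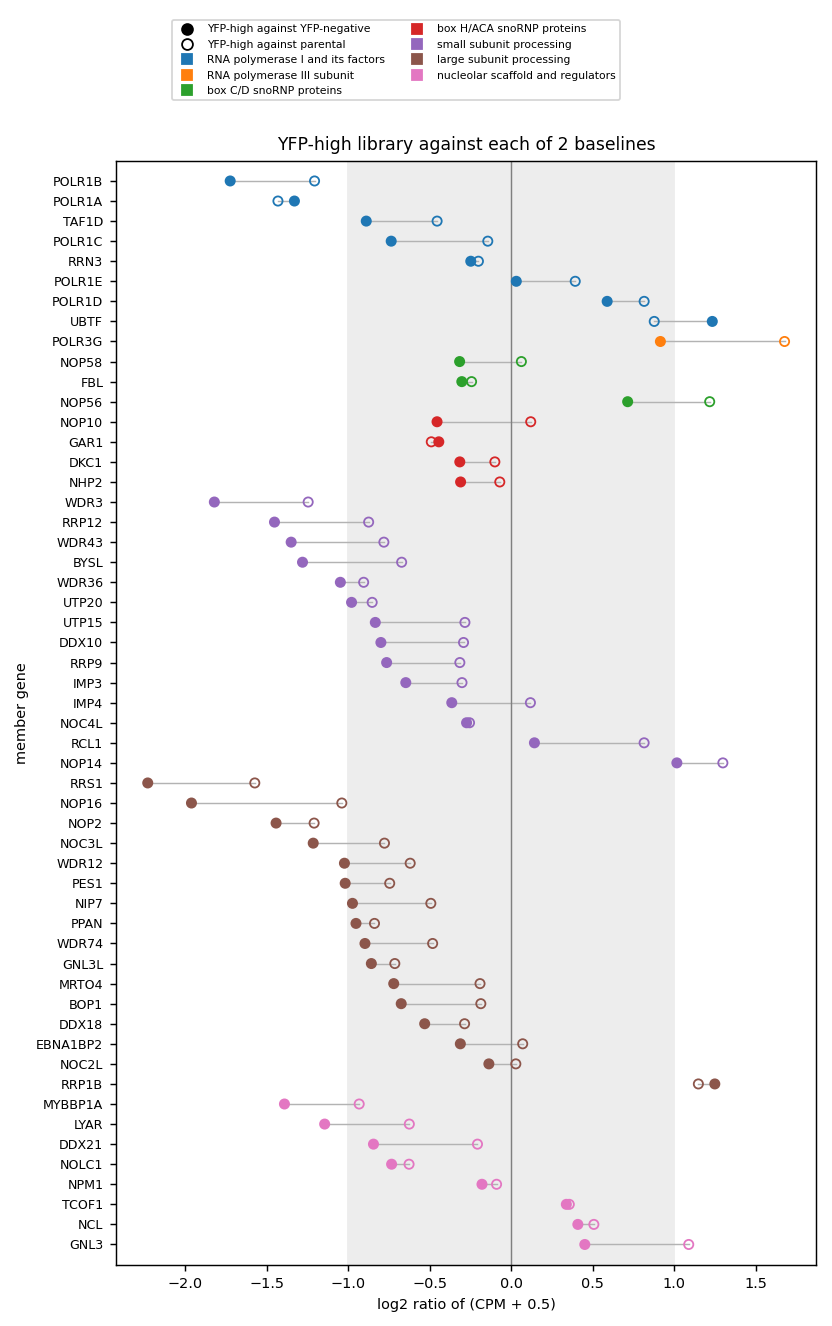
Log2 ratio of CPM + 0.5 in YFP-high against YFP-negative (filled) and against parental cells (open) for the 54 genes, coloured by role; the grey band spans a 2-fold change either way. Most open points lie to the right of the filled ones, and POLR1A, POLR1B, WDR3, RRS1, NOP16 and NOP2 are left of the band in both.

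Other lists of the pathway were set beside the 54 genes; over all genes 11.3% were lower and 20.5% higher in YFP-high than in YFP-negative. Of 42 other large subunit genes 10 were lower (23.8%) and 2 higher (4.76%), with a median log2 ratio of -0.59. Of 40 other small subunit genes 10 were lower (25.0%) and 1 higher (2.5%), with a median of -0.51. NAT10, which acetylates small subunit RNA, was lowest of the small subunit genes named by rule at -1.87, before NOL6 at -1.77, NOB1, the nuclease of the final cut, at -1.69 and PDCD11 at -1.41. In the large subunit list PAK1IP1 and SURF6 were at -1.55 and -1.54, but URB2 was at 1.67 and SENP3, a SUMO protease, at 1.49. URB2 had 56.8 CPM in parental and 86.7 CPM in YFP-negative cells, then 162 CPM at YFP-low, 249.4 CPM at YFP-medium and 277 CPM at YFP-high.

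Of 7 other RNA polymerase I genes 2 were lower (28.6%, beside 11.3% of all genes) and 0 higher (beside 20.5%). CD3EAP, a polymerase I subunit, had 2.58 CPM in YFP-high and 11.0 CPM in YFP-negative (log2 ratio -1.90), TAF1C of SL1 was at -1.29 and the terminator protein TTF1 at 0.77; TAF1A of SL1 was 2.09-fold lower in CPM but just short of the rule. The 5 subunits shared by RNA polymerases I, II and III were near level, with a median of -0.10 and a range bounded by POLR2L at -0.33 and POLR2H at 0.27. Of 26 other RNA polymerase III genes 5 were lower (19.2%, beside 11.3% of all genes) and 2 higher (7.69%, beside 20.5%): POLR3B was at -1.58, SNAPC1 at -1.57 and POLR3E at -1.25, and the initiation factor BRF1 was at 1.45.

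In YFP-high against YFP-negative, ribosomal protein genes had median log2 ratios nearer to 0 than the 54 genes. Still, 89.4% of large and 87.1% of small subunit protein genes had ratios below 0, beside 79.6% of the 54 genes. Of 47 large subunit protein genes 1 was lower and 0 higher, with a median log2 ratio of -0.32, and of 31 small subunit protein genes 0 were lower and 0 higher, with a median of -0.19, beside 11.3% lower and 20.5% higher over all genes. The 1 lower gene was RPL36A (-1.52), with 2.27 CPM in YFP-high and 7.46 CPM in YFP-negative; ribosomal proteins have many processed pseudogenes, so these counts are uncertain. RPL13A, RPL29 and RPL13 were at -0.73, -0.64 and -0.61. Between YFP-negative and parental cells the median log2 ratio was -0.07 for large and -0.13 for small subunit proteins, beside 0.39 for the 54 genes. For YFP-high against parental cells it was -0.41 for large and -0.28 for small subunit proteins, beside -0.29 for the 54 genes. The summed TPM of YFP-high was 0.767 of the YFP-negative sum for large and 0.783 for small subunit proteins (30 genes with a TPM value). That ratio was 0.798 for the 54 genes and 0.710 for them without NCL and NPM1.

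**Figure D4:**
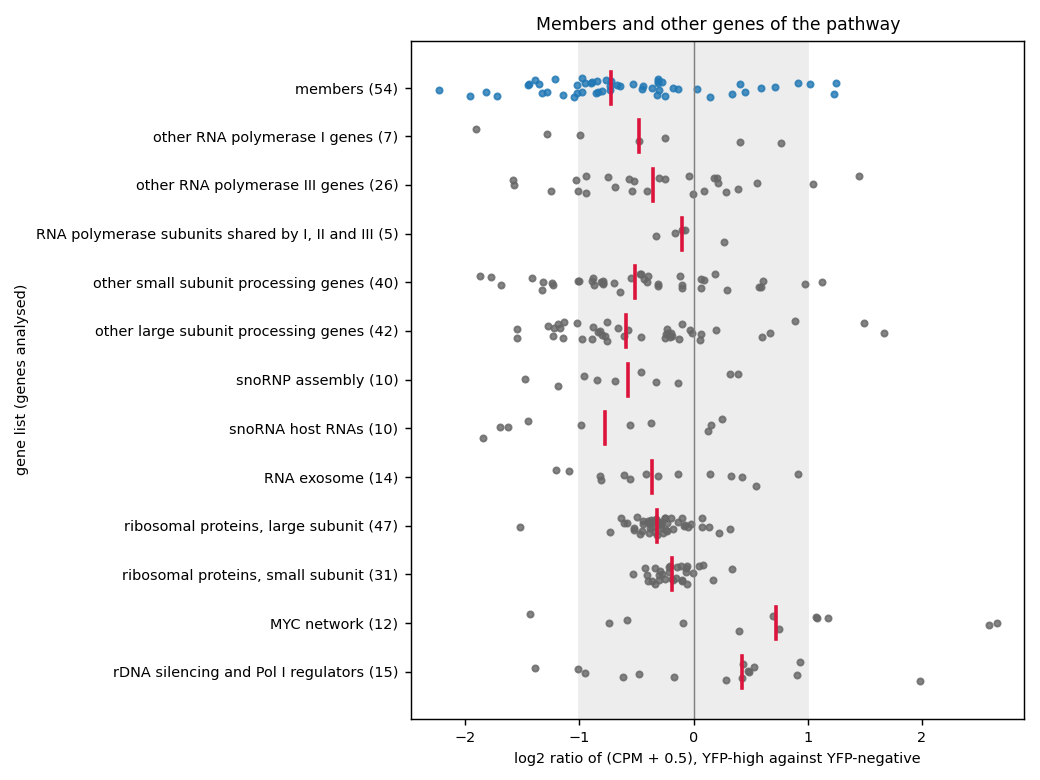
Log2 ratio of CPM + 0.5 in YFP-high against YFP-negative for the 54 genes (top, blue) and for 12 other lists of the pathway (grey), with 1 point per gene and the list's median as a red line; points are spread vertically at random and the grey band spans a 2-fold change either way. The 54 genes have a median of -0.73, the ribosomal proteins lie close together near -0.32 and -0.19, and the MYC network has a median of 0.72.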

How the data were processed

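Per the labels, total RNA of flow-sorted cells was isolated with a Qiagen kit and sequenced as Illumina libraries. The authors deposited raw read counts per gene and a table of TPM; the submitters' processing notes name CASAVA 1.8.2, Trimmomatic 0.36, HISAT2 2.0.3, HTSeq 0.6.0 and the build hg19. The sources used here do not give the annotation, the strand setting or the tool behind the TPM. Rows that name no gene held 22.3% to 24.3% of counted reads and were left out. Counts were scaled to CPM with TMM factors (edgeR 4.0.16, 0.904 to 1.09), and log2 ratios were taken of CPM + 0.5. In these libraries 3 reads equal 0.0360 to 0.0469 CPM. Sequences came from RefSeq (GRCh38.p14), matched by gene name; BOP1, DDX18, NOLC1, NOP58, POLR1E, POLR3G, RRP12, RRP1B, RRS1 and TCOF1 had no promoter entry, and overlaps of genes were looked up there too. Values in every library are given for E2F1, MYC, all genes past the rule in YFP-high against YFP-negative and the 4 highest and 4 lowest genes of each other comparison. Of each other list, up to 4 genes with the largest ratio and at least 5 CPM are named; MYCN, POLR3GL, NPM1, NCL, RRN3 and the overlapping genes were chosen after their values were seen. The 54 genes and the lists were chosen with earlier results of these data known. Alternatives were DESeq2 1.42.0 size factors, total gene counts, no filter, a 5 CPM filter, 2 CPM as pseudocount, a 1.5-fold rule, and the size rule alone on the deposited TPM.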

Additional observations from a re-analysis of the deposited data

How the results depend on the processing

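No paired analysis was possible because each group has 1 library, and no replicate could be left out. Of 105 recomputed results on the 54 genes 87 were unmoved. A count within 1.5-fold of the reported one, or a median inside the binomial interval of the reported median, was taken as unmoved. All 54 genes passed the filter, so the 16 results without a filter could not move. The 5 CPM filter could take out only PPAN, and its 16 results were unmoved as well. The sign of the median was kept in all 5 comparisons under each alternative. Total gene counts shifted the all-gene median by -0.09 at YFP-low, -0.20 at YFP-medium and -0.25 at YFP-high (log2, against YFP-negative), and by -0.22 in YFP-high against parental. With them 27 genes were lower and 0 higher in YFP-high against YFP-negative (median -0.996), 4 were lower in YFP-medium (median -0.57), the YFP-low median was -0.23, and 12 were lower and 2 higher in YFP-high against parental (median -0.52); over all genes they gave 19.0% lower and 16.0% higher, 5.19% lower in YFP-medium, and 21.1% lower and 17.5% higher against parental. Relative to all genes, the YFP-high median was -0.69 under TMM, DESeq2, total-count and TPM scaling alike. TMM, DESeq2 and total counts each scale a whole library by a single factor. The 54 genes and all genes then shift together, so this agreement was nearly fixed in advance and is no check of the result. The deposited TPM gave 4 lower genes in YFP-medium (median -0.47). The 1.5-fold rule gave 30 lower and 6 higher genes in YFP-high against YFP-negative; 10 and 2 in YFP-medium; against parental, 19 and 8 in YFP-high; and 8 higher in YFP-negative against parental. NOP14 missed the rule with total counts (0.75), a pseudocount of 2 CPM (0.99) and TPM (0.89), UBTF (0.96) and RRP1B (0.98) with total counts, PES1 (-0.98) with DESeq2 size factors, and WDR12 with DESeq2 (-0.99) and the pseudocount of 2 CPM (-0.99). The genes falling at each step numbered 35 to 43. Of the 54 genes PPAN had the fewest reads, and the next lowest count was 739 reads (RCL1).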

Other observations

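The values in these paragraphs compare YFP-high with YFP-negative, where 11.3% of all genes were lower and 20.5% higher. Of 12 genes of the MYC network, which covers MYC, its relatives and the proteins that pair with or oppose them, 5 were higher (41.7%, beside 20.5% of all genes) and 1, MYC, was lower (8.33%, beside 11.3%), with a median log2 ratio of 0.72. MYCL1 had 19.0 CPM in YFP-high and 2.73 CPM in YFP-negative, although parental cells held 8.01 CPM. MYCN had 4.83 CPM in YFP-high and 0.348 CPM in YFP-negative. MXD1, which competes with MYC for MAX, was at 1.18 and MLXIP at 1.08 on the log2 scale. Of 15 genes linked to the silencing or control of ribosomal DNA 2 were lower (13.3%, near the 11.3% of all genes) and 1 was higher (6.67%, beside 20.5%), and the median was 0.43. The demethylase KDM2B was at 1.98, the demethylase KDM4A at -1.39 and BAZ2A, a part of the nucleolar remodelling complex NoRC, at -1.01.

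Long RNAs that host snoRNAs had 4 of 10 genes lower (40.0%, beside 11.3% of all genes) and 0 higher (beside 20.5%), with a median of -0.77. SNHG3, SNHG8, GAS5 and SNHG15 were at -1.84, -1.69, -1.62 and -1.45. GAS5 was at 34.3 CPM in parental and 49.4 CPM in YFP-negative cells, and at 34.5 CPM with low, 22.6 CPM with medium and 15.7 CPM with high YFP. Of 10 snoRNP assembly genes 2 were lower (20.0%, beside 11.3%) and 0 higher (beside 20.5%), with a median of -0.58. ZNHIT6 was at -1.48 and NAF1 at -1.19, with RUVBL1 at -0.96 and NUFIP1 at -0.85. Of 14 RNA exosome genes, which trim pre-ribosomal RNA, 2 were lower (14.3%, near the 11.3% of all genes) and 0 higher (beside 20.5%), with a median of -0.36. DIS3 was at -1.21 and EXOSC7 at -1.09, with EXOSC2 at -0.82, whereas MPHOSPH6 was at 0.91. RMRP, the RNA of a nuclease that cuts pre-ribosomal RNA, had 2.71 CPM in parental and 1.64 CPM in YFP-negative cells, then 2.75 CPM at YFP-low, 6.63 CPM at YFP-medium and 2.83 CPM at YFP-high; it was chosen after its values were seen. The 5S row held 19 to 31 reads per library and the 5.8S row 0; other ribosomal RNAs were not analysed here.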
